A study of Mus musculus with 1 sample.

Results

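Germ cells made up 319 of the 4301 cells with at least 1000 detected genes in 1 single-cell library of the fetal mouse testis, a share of 7.42% (exact 95% interval 6.65 to 8.24%). The library carries the label WT. By the study's methods its cells came from fetuses homozygous for the Nr5a1 L2 allele, a loxP-flanked allele of the gene for the nuclear receptor NR5A1, without the AMH-cre transgene that deletes it in Sertoli cells of the mutant group. The label counts 12 controls, where the study's text counts testes and not fetuses, and these were pooled into 1 suspension, labelled embryonic day 14.5, so the cells had 1 source and cannot be traced to single fetuses. The study's text also names an earlier day, and which gonads came from which day was not resolved here. Complementary DNA was made with the 10x 3′ chemistry, in which each unique molecular identifier (UMI) marks 1 captured transcript molecule at its 3′ end, so levels do not grow with transcript length. The mutant library was not used here. With 1 library there was no replicate to set a difference against, so no test was made and every interval below covers counting error only.

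Prospermatogonia are the fetal germ cells of the male. They descend from primordial germ cells that enter the gonad, lie inside the testis cords surrounded by Sertoli cells, and are known to pass from proliferation into a long mitotic arrest while they switch off pluripotency genes and switch on a male programme. In the ovary, germ cells of the same age start meiosis instead. In the arrested male germ cell, DNA methylation, erased earlier, is laid down again with the help of DNMT3L and of the PIWI-interacting RNA (piRNA) machinery, which silences transposons.

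The members were selected on transcripts of 16 genes. A cell was called a germ cell when it held a UMI of at least 5 of 8 germ genes and of at most 4 of 8 Sertoli genes. The germ genes were Ddx4, Dazl, Mael and Dnd1, which code for RNA-binding or RNA-processing proteins of germ cells, and Pou5f1, Utf1, Dppa3 and Dppa5a, which mark pluripotent cells and early germ cells. The Sertoli genes were Amh, Sox9, Cst9, Aard, Tesc, Mro, Cldn11 and Dhh. Of the 319 members, 297 held UMIs of all 8 germ genes, 14 of 7, 5 of 6 and 3 of 5, and the last 3 were shallow, with a median of 3554 UMIs. No cell with 4 germ genes met the Sertoli limit. The 12 cells with 4 germ genes all held at least 6 Sertoli genes, and the next cells out along the germ axis were 16 with 3 germ genes and at most 4 Sertoli genes. On the other side of the Sertoli limit stood 29 cells with at least 5 genes of each kind, with a median of 43999 UMIs. They were counted among the other cells. No Sertoli gene was detected in 135 members, and 9 members were at the limit of 4.

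**Figure D1:**
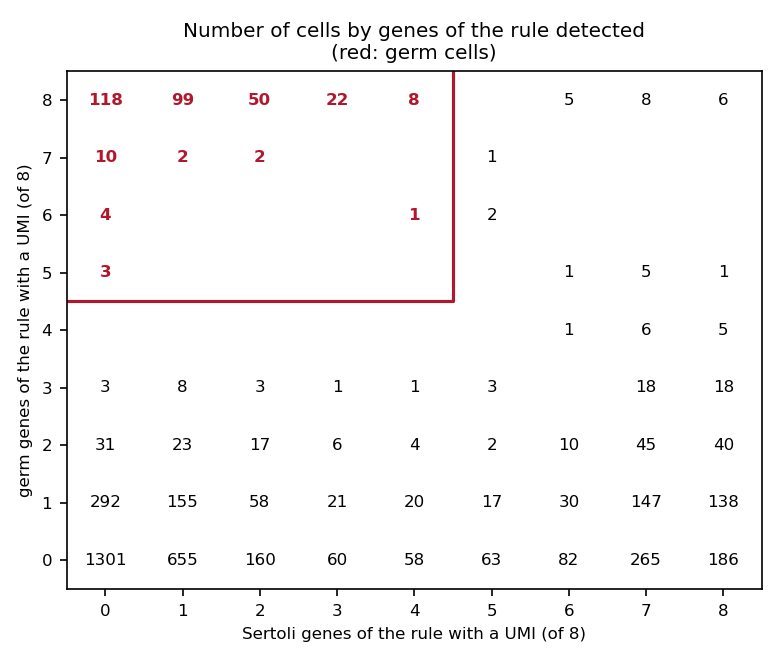
Number of cells at each combination of detected Sertoli genes (horizontal axis, of 8) and germ genes (vertical axis, of 8) of the rule, with the germ cells in red above and left of the red line. Most of the 319 germ cells sit in the row of 8 germ genes, which holds 297 of them, and the row of 4 germ genes is empty left of the limit.

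Germ cells were the deeper part of the library. They held 12754322 UMIs, 18.7% of those in cells with at least 1000 genes, and their median of 37908 UMIs (lowest 1926, quartiles 30477 and 47260, highest 124290) stood against 11898 in the 3982 other cells. Their median of detected genes was 5790, against 3528. Mitochondrial genes took a median of 8.82% of a germ cell's UMIs and ribosomal protein genes 29.3%, against 6.98% and 23.6% in the other cells. Because of this depth gap, levels are given below as UMIs of a gene per 1000000 UMIs of the group (CPM), and shares of cells with a UMI also after each cell had been thinned at random to 5000 UMIs, which kept 313 germ cells and 3746 others.

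Transcripts of other cell types were low in the germ cells as a group. The 7 Sertoli markers that the rule did not use, Ptgds, Defb19, Gatm, Fgf9, Inhbb, Sox8 and Sox10, were each at least 4-fold lower than in the other cells, as were 23.9% of all genes compared, and they summed to 45.9 CPM against 1944 CPM. The most abundant of them, the defensin gene Defb19, was at 26.5 CPM against 1061 CPM. The 8 Sertoli genes of the rule, whose detection it limited, were at 32.1 CPM against 2291 CPM, given as a description. Among them Cldn11 was at 0 UMIs, which for ratios was set at a floor of 0.235 CPM (3 UMIs over all germ cells). Immune markers were close to absent, with the 8 genes summing to 2.12 CPM against 113 CPM, the most abundant of them, Fcer1g, at 1.80 CPM, and Tyrobp, C1qa, Lyz2 and Cx3cr1 at 0. Of the 8 endothelial markers, 5 were at least 4-fold lower and the list summed to 46.2 CPM against 131 CPM, led by Plvap at 17.5 CPM. The 8 interstitial markers, all at least 4-fold lower, summed to 105 CPM against 2780 CPM, with the collagen gene Col3a1 the most abundant at 27.6 CPM. Of 7 peritubular myoid markers, 6 were at least 4-fold lower (82.7 CPM against 833 CPM for the list, with Actg2 at 0). The coelomic epithelium list was at 25.01 CPM against 54.02 CPM, with 3 of 6 genes at least 4-fold lower and 1, Lhx2, at least 4-fold higher, and stood above the 3.81 CPM of the Sertoli group. The Leydig list was at 489 CPM against 4565 CPM and the erythroid list at 319 CPM against 8534 CPM.

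A few members carried most of the Leydig and interstitial transcripts. At least 4 of the 8 interstitial genes were detected in 27 members, whose median was 44306 UMIs. These 27 cells held Leydig markers at 4236 CPM and interstitial markers at 877 CPM, against 79.4 CPM and 21.1 CPM in the other 292 members. The other marker lists depended less on them. Without the 27 cells the 7 Sertoli markers outside the rule were at 28.1 CPM, myoid markers at 66.6 CPM, endothelial markers at 46.8 CPM and coelomic markers at 23.5 CPM. A single member held 4581 of the 6232 Leydig UMIs (73.5%). Of Cyp11a1, the side-chain cleavage enzyme of steroid synthesis, 1678 of 2097 UMIs came from 1 cell. A single member likewise held 1906 of the 4073 UMIs of hemoglobin and other erythroid genes (46.8%). When artificial doublets were mixed into the data and the 202 barcodes with the most of them among their neighbours were marked, 12 germ cells were marked (3.76%) and all 12 were among the 27. The members were otherwise kept as the rule gave them, and whether any of them is 2 cells under 1 barcode was not tested.

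Clustering without the 16 genes of the rule gathered nearly the same cells. It gave 21 clusters, and 2 of them held 315 of the 319 members (98.7%). The 2 clusters also took in 23 cells that were not members, 21 of which held at least 5 germ genes and at least 5 Sertoli genes. The other 4 members lay outside.

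The 8 germ genes of the rule, given as a description, ran from 340 CPM for Mael to 2108 CPM for Dppa3 in the germ cells, and from 6.71 to 31.8 CPM in the other cells. Dazl, a translational regulator needed for germ cell development, was at 954 CPM against 14.8 CPM and was detected in 318 of 319 members. The RNA helicase gene Ddx4 was at 392 CPM against 8.19 CPM, with a single-cell median of 380 CPM and quartiles of 281 and 479 CPM. Most of the signal in the other cells came from the 29 cells rich in transcripts of both kinds. These held 4848 of the 6495 UMIs of the 8 genes found outside the germ cells (74.6%) and 2.03% of all UMIs there, and without them the 8 genes summed to 30.3 CPM in the other cells against 6565 CPM in the germ cells. The 29 cells also held the 7 Sertoli markers outside the rule at 2303 CPM.

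Across the genome the germ cells differed widely from their neighbours. Of 13533 genes with at least 50 UMIs in the compared cells, 892 were at least 4-fold higher in germ cells (6.59%) and 3240 at least 4-fold lower (23.9%), and the median gene was lower by 0.42 on the log2 scale. Against the 1025 Sertoli cells alone, chosen by at least 5 Sertoli genes and at most 2 germ genes, 920 of 11955 genes were at least 4-fold higher (7.7%) and 2164 at least 4-fold lower (18.1%). Because the members were selected on transcripts of the same cells, these shares describe the contrast and are not evidence for it.

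The 20 genes with the largest ratios were taken with the genes of the rule left out. Rhox1, a homeobox gene of the X-linked Rhox cluster (GRCm38 chromosome X, 37213804 to 37222258), led at 68.6 CPM against 0.757 CPM, a ratio of 90.6 (95% interval 66.5 to 127). Next came Tdrd12, a Tudor-domain gene of the piRNA pathway, at 77.5 CPM with a ratio of 82.7, and Sycp1, which codes for the transverse filament of the synaptonemal complex, at 145 CPM with a ratio of 77.1. The most abundant of the 20 was Dppa4, a chromatin factor of pluripotent cells, at 554 CPM, followed by Rbmxl2, a germline RNA-binding protein gene, at 262 CPM and Tex19.1, a gene involved in transposon control, at 252 CPM. The remaining 14 were Tcl1, Tuba3a, Asz1, Morc1, Tdh, Trap1a, Nanos2, Trim71, Topaz1, Foxr1, Adad2, Gtsf1, Zfp42 and Mov10l1, with ratios between 61.6 and 73.1. Here too the other cells' signal was concentrated, since the 29 cells rich in both kinds of transcript held 1885 of the 2302 UMIs of the 20 genes outside the germ cells (81.9%). Without them the 20 genes summed to 7.67 CPM in the other cells against 2744 CPM in the germ cells, and both the ratios and their order changed. Rhox1 then had a ratio of 339 (188 to 681), and 11 of the 20 stood above it, while Zfp42 had the lowest ratio at 177 (108 to 312). These ratios rest on few UMIs in the other cells, 11 for Rhox1 and 3 for Tcl1, which then stood first at 1217 (415 to 5913).

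**Figure D2:**
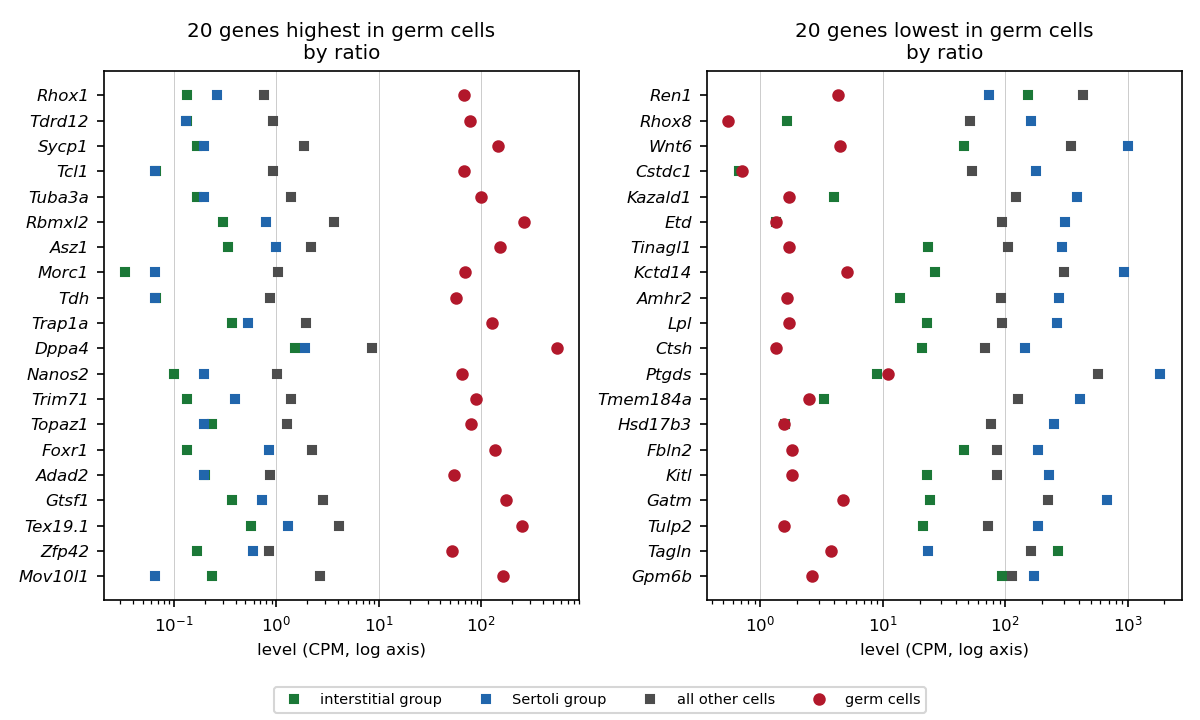
Level in CPM (log axis) of the 20 genes with the largest ratio in each direction, in germ cells (red circles), all other cells (grey squares), the Sertoli group (blue squares) and the interstitial group (green squares); points that coincide hide one another. On the left every red point lies above 50 CPM and every other point below 10 CPM; on the right the grey points lie at least 43-fold above the red ones, and most of these genes are highest in the Sertoli group.

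The letters CACGTG, the palindromic E-box recognised by basic helix-loop-helix factors of the MYC, MAX and MGA family, were looked for in the promoters of these genes, since MGA and MAX belong to a repressor complex known to silence germline genes in somatic cells. Promoters were the 300 bases from 250 before to 50 after the start of transcription, from RefSeq on GRCm38.p6. The E-box stood in 13.1% of the 861 promoters matched to genes at least 4-fold higher in germ cells, in 6.46% of those of genes at least 4-fold lower, in 9.79% of those of all genes compared and in 7.15% of the 32851 promoters of the table. Among the 20 leading genes, 17 had a promoter entry and 5 of their 18 promoters held it, in Adad2 after the start and in the other 4 before it. As a comparison motif, the E2F-type site GGCGGGAA was read on both strands. It was in 4.18% of the promoters of higher genes, 3.12% of those of lower genes and 3.98% of those of all genes compared. The sequences around the E-box, which is in capitals, are shown for Sycp1, Rbmxl2, Topaz1 and Mov10l1 of the leading genes and for Ddx4 and Mael of the rule, each 5′ to 3′ on the strand of the gene.

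Sycp1, chr3:102936162-102936221, minus strand, E-box 94 bases before the start: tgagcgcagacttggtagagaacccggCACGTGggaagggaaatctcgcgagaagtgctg
Rbmxl2, chr7:107209197-107209256, plus strand, E-box 221 bases before the start: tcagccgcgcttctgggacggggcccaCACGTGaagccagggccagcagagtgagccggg
Topaz1, chr9:122747128-122747187, plus strand, E-box 44 bases before the start: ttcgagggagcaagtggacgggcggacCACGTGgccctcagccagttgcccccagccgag
Mov10l1, chr15:88982744-88982780, plus strand, E-box 246 bases before the start: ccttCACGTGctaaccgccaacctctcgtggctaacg
Ddx4, chr13:112652311-112652366, minus strand, E-box 29 bases before the start: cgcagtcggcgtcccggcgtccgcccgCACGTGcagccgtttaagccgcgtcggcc
Mael, chr1:166238935-166238994, minus strand, E-box 223 bases before the start: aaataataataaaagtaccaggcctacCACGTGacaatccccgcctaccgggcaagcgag

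The match is a description of these letters in these windows. Morc1, Tdh, Dppa4, Dppa3, Dppa5a and Dnd1 had no promoter entry. Transcripts of the complex were found in both germ cells and other cells. Mga was at 127 CPM in germ cells and 75.5 CPM in the other cells, and its partners Max, Pcgf6, L3mbtl2 and E2f6 also differed by less than 4-fold.

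Markers of germ cell identity outside the rule were high. Of 18 such genes compared, 15 were at least 4-fold higher (83.3%, against 6.59% of all genes compared) and none lower, and the list summed to 2762 CPM against 228 CPM. The interferon-induced membrane protein gene Ifitm1, an early germ cell marker, was the most abundant at 1018 CPM against 103 CPM. The zinc-finger gene Sall4 was at 109 CPM against 2.06 CPM, and Nanos3, which protects migrating germ cells from death, at 89.5 CPM against 3.86 CPM. The specification factors that act earliest in the lineage, Prdm1, Tfap2c and Prdm14, had fewer transcripts, at 18.0, 8.94 and 6.66 CPM, and after thinning a UMI was found in 10.5%, 3.83% and 2.88% of germ cells against 0.32%, 0.0534% and 0.0267% of other cells. Ifitm3, Alpl and Kit differed by less than 4-fold, Ifitm3 closest to the limit and past it without the marked doublets (log2 ratio 2.03). For Kit, the receptor through which migrating germ cells respond to KIT ligand, the level was 10.7 CPM (8.95 to 12.6) in germ cells and 8.37 CPM (7.62 to 9.16) in the others.

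Transcripts of pluripotency genes were detected as well. Of 13 genes compared in the list of pluripotency and Nodal signalling genes, 10 were at least 4-fold higher (76.9%, against 6.59% of all genes compared), and the list summed to 434 CPM against 72.9 CPM, though with a wide range over single cells (quartiles 243 and 551 CPM, highest 2016 CPM). Sox2 was at 60.1 CPM (56.0 to 64.5) against 1.12 CPM and had a UMI in 262 of 319 cells, or after thinning in 24.3% of germ cells and 0.187% of other cells. Nanog was at 22.1 CPM (19.6 to 24.8) against 0.595 CPM, with thinned shares of 12.8% and 0.133%. Trim71, an RNA-binding regulator of stem cells, was at 88.3 CPM and was the most abundant of the list. Genes of the Nodal pathway were present too. The ligand gene Nodal was at 11.8 CPM against 0.288 CPM, and its antagonist Lefty1 at 50.5 CPM against 5.05 CPM. Lefty1 was very uneven, with its 644 UMIs in 92 cells and up to 40 in a single cell. Klf2, Klf4 and Lefty2 differed by less than 4-fold over all germ cells.

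Genes of the male programme were detected in most of the germ cells. Of 10 genes compared, 8 were at least 4-fold higher (80%, against 6.59% of all genes compared) and the list summed to 336 CPM against 50.1 CPM. Nanos2, the RNA-binding protein that holds male germ cells out of meiosis, was at 64.4 CPM (60.04 to 68.9) against 1.01 CPM, with a single-cell median of 53.5 CPM and quartiles of 16.2 and 93.8 CPM. A UMI of Nanos2 was found in 244 of 319 germ cells (76.5%, 71.4 to 81.0%), and after thinning in 27.8% of germ cells against 0.24% of other cells. The 29 cells rich in both kinds of transcript held 47 of its 56 UMIs outside the germ cells. Morc1, an ATPase gene needed for transposon silencing, was at 69.4 CPM against 1.05 CPM, and Piwil4, the PIWI protein that enters the nucleus to direct DNA methylation, at 41.7 CPM against 1.26 CPM. Their thinned shares were 26.8% and 15.7% of germ cells, against 0.187% and 0.641% of other cells. Dnmt3l, the cofactor of de novo methylation, was scarcer and more uneven, with 209 UMIs in 92 cells (16.4 CPM against 0.361 CPM) and 19 of them in a single cell. The arrest-associated genes Rb1, at 31.4 CPM against 6.54 CPM, and Cdkn2b, at 7.92 CPM against 0.559 CPM, were at least 4-fold higher, whereas Cdkn1b, at 17.5 CPM against 25.8 CPM, and Dmrt1, at 31.8 CPM against 10.6 CPM, were not.

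**Figure D3:**
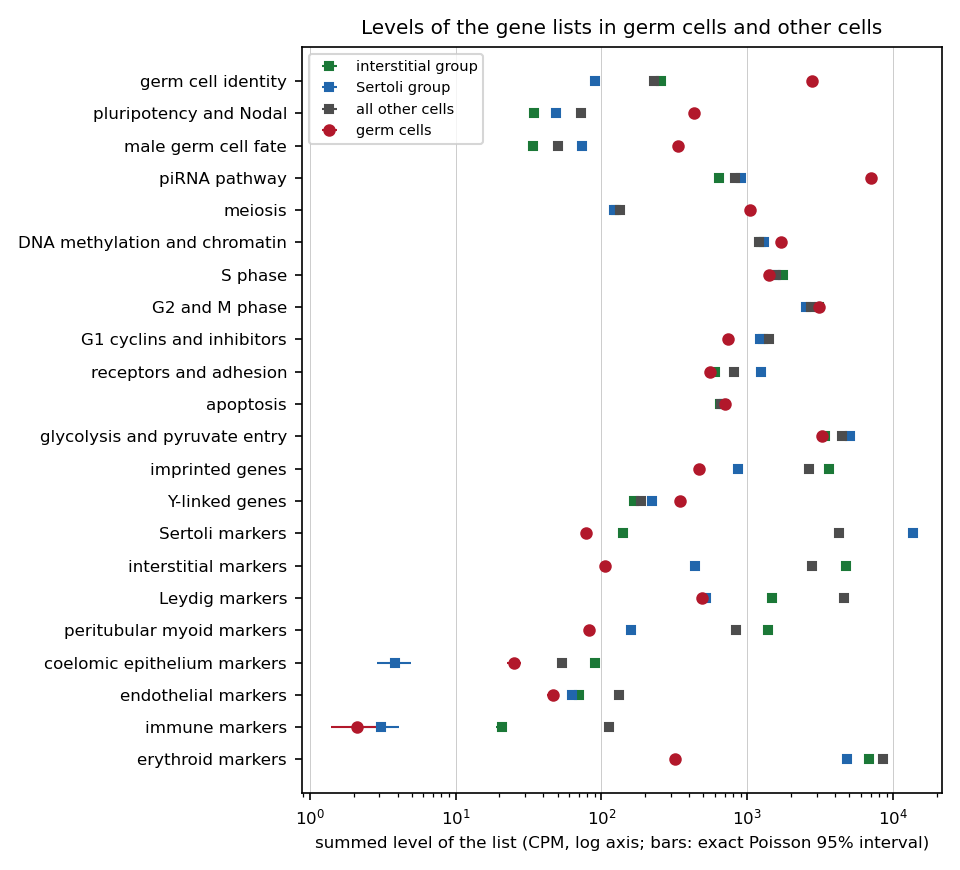
Summed level of each gene list in CPM (log axis) in germ cells (red circles), all other cells (grey squares), the Sertoli group (blue squares) and the interstitial group (green squares), with exact Poisson 95% intervals as bars where they are wider than the points. Germ cells are to the right for the germline lists, such as 7003 against 818 CPM for the piRNA pathway, and to the left of all other cells for the marker lists of other cell types, such as 105 against 2780 CPM for interstitial markers; the Sertoli list here includes the 8 genes of the rule. For coelomic epithelium markers the Sertoli group is lower still, at 3.81 CPM.

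On the log2 scale, where the median ratio of all genes compared was -0.42, the list medians were 4.70 for germ cell identity, 4.74 for pluripotency and Nodal, 4.35 for male fate, 5.05 for the piRNA pathway and 4.84 for meiosis. They were 0.74 for DNA methylation and chromatin, 0.06 for G2 and M phase, -0.34 for S phase, -0.86 for G1 regulators, -0.79 for receptors and adhesion, -0.73 for apoptosis, -0.59 for glycolysis and -2.33 for imprinted genes. A gene can belong to more than 1 list, as Piwil4 does.

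The piRNA pathway was the most completely represented list. Of 19 genes compared, 18 were at least 4-fold higher (94.7%, against 6.59% of all genes compared), and Pld6, the mitochondrial phospholipase of piRNA processing, was just under the limit (6.12 CPM against 1.60 CPM) and passed it as a mean over single cells. The list summed to 7003 CPM against 818 CPM, of which the chaperone gene Hsp90aa1, which loads PIWI proteins and has many other clients, gave 5302 CPM against 769 CPM. The co-chaperone gene Fkbp6 was at 393 CPM, the Tudor-domain gene Tdrd5 at 181 CPM, the small zinc-finger gene Gtsf1 at 176 CPM, the helicase gene Mov10l1 at 163 CPM and Asz1 at 151 CPM, each against less than 10 CPM in the other cells. Among the PIWI genes themselves, Piwil2 was at 70.6 CPM (66.0 to 75.3) and Piwil4 at 41.7 CPM (38.2 to 45.4). Piwil1, which acts in adult meiotic cells, was at 5.49 CPM (4.28 to 6.93), so the order of the PIWI genes was clear beyond counting error.

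Genes named for meiosis ranged from abundant to rare. Of 21 genes compared, 15 were at least 4-fold higher (71.4%, against 6.59% of all genes compared) and none lower, with the list at 1042 CPM against 133 CPM. Among them were the cohesin gene Smc1b at 158 CPM, the synaptonemal complex genes Sycp1 at 145 CPM and Sycp3 at 143 CPM, and Tex12 at 123 CPM, each below 4 CPM in the other cells. By contrast Stra8, the inducer of meiotic entry, had 61 UMIs in all (4.78 CPM), found in 30 of 319 cells (9.40%, 6.44 to 13.2%) and in 1 of the 3982 other cells, and 13 of the 61 came from a single cell. After thinning to 5000 UMIs a UMI was left in 4 of 313 germ cells (1.28%, 0.349 to 3.24%). Of the 30 cells found before thinning, 24 also held Nanos2 transcripts, beside 244 of all 319 germ cells (76.5%). Of the 319, 220 held Nanos2 alone, 6 Stra8 alone and 69 neither. Meioc, which sustains the meiotic programme, was at 3.29 CPM, the meiotic cohesin gene Rec8 at 7.61 CPM, and Spo11, which makes the double-strand breaks, at 8.0 CPM. Dmc1, Prdm9, Msh5, Ythdc2, Syce2 and Brca2 differed by less than 4-fold from the other cells.

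Genes that write, read and erase DNA methylation mostly lay within 4-fold of the other cells. Of 24 genes for DNA methylation and chromatin, 1 in each direction passed the limit (4.17%, against 6.59% higher and 23.9% lower among all genes compared). Dnmt3l was at least 4-fold higher and Tet3, a dioxygenase that oxidises methylcytosine, at least 4-fold lower (5.57 CPM against 37.0 CPM), and the other 22 lay between. The maintenance enzyme gene Dnmt1 was at 70.1 CPM in germ cells and 68.8 CPM in the others, while that of its partner Uhrf1 was at 17.0 CPM against 44.9 CPM. The de novo enzyme gene Dnmt3a was at 64.9 CPM against 99.8 CPM. Tet1, at 76.4 CPM against 19.9 CPM, stood just under the 4-fold limit and passed it without the marked doublets (log2 ratio 2.01). Trim28 and Kdm1a, a corepressor and a histone demethylase, were at 316 and 210 CPM, with ratios of 2.09 and 2.31.

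Proliferation genes were not uniformly low. Of 23 S phase genes, 21 lay within 4-fold and Rrm2 and Gins2 were lower (8.70%, against 23.9% of all genes compared), and the list summed to 1415 CPM against 1566 CPM. Of 28 genes of G2 and M phase, 27 lay within 4-fold and the kinetochore gene Cenpf was higher at 722 CPM against 175 CPM (3.57%, against 6.59% of all genes compared). The proliferation marker Mki67 was at 48.8 CPM against 152 CPM. A UMI of Mki67 was found in 134 of 319 germ cells before thinning and in 69 of 300 after thinning to 10000 UMIs. The chromatin remodeller gene Hells, needed for methylation in the germ line, was at 263 CPM against 76.7 CPM. Among 19 G1 regulators, 4 were at least 4-fold higher (21.1%) and 3 lower (15.8%), beside 6.59% and 23.9% of all genes compared. The other 12 lay within 4-fold. Cdkn2a, which codes for the inhibitors p16 and p19, was at 69.4 CPM against 1.5 CPM, and Cdkn1a at 16.4 CPM against 3.98 CPM, whereas Ccnd2, a D-type cyclin, was at 11.9 CPM against 222 CPM, a ratio of 18.6 in favour of the other cells. Cdkn2c and Rbl2 were also at least 4-fold lower. Cenpf, Cdkn1a and Rb1 stood close to the limit and fell short of 4-fold when germ cells were allowed at most 1 Sertoli gene, with log2 ratios of 1.78, 1.78 and 1.97.

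Of 23 genes for receptors and adhesion, 3 were at least 4-fold higher (13.0%) and 7 lower (30.4%), beside 6.59% and 23.9% of all genes compared. The higher genes were the epithelial adhesion genes Epcam, at 167 CPM against 12.6 CPM, and Cdh1, at 24.0 CPM against 0.739 CPM, and the GDNF receptor gene Ret, at 16.5 CPM against 0.27 CPM. Its co-receptor Gfra1 was too rare to compare, at 0.784 CPM. Of the lower genes, the gap junction gene Gja1 was at 5.8 CPM against 115 CPM and the laminin receptor gene Itga6 at 17.7 CPM against 161 CPM. The other 5 were Fgfr3, Fgfr4, Rarb, Notch1 and Esam. Kitl, the ligand of the KIT receptor, was among the 20 genes lowest in germ cells, at 1.80 CPM against 228 CPM in the Sertoli group.

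Genes of cell death and of glucose metabolism were called about as often as genes at large. Of 19 apoptosis genes 1 was at least 4-fold higher and 4 lower (21.1%), and of 21 genes of glycolysis and pyruvate entry 1 and 4 (19.05%), where 23.9% of all genes compared were lower. Pmaip1, which codes for the pro-apoptotic protein NOXA, was at 64.9 CPM against 1.51 CPM, while the survival gene Bcl2 was at 1.57 CPM against 28.1 CPM, the effector gene Bak1 at 0.862 CPM against 17.6 CPM and Casp8 at 1.02 CPM against 25.6 CPM. Apaf1 was also lower, though short of 4-fold as a mean over single cells (log2 ratio -1.99), and 14 of the 19 lay within 4-fold, among them Bax at 277 CPM against 140 CPM. Of the glycolysis genes, Ldha, which makes lactate from pyruvate, was at 20.1 CPM against 223 CPM. Pfkl, Tpi1 and Hk1 were also lower, and 16 lay within 4-fold. Pdk1, a pyruvate dehydrogenase kinase gene, was higher at 58.7 CPM against 13.2 CPM (short of 4-fold with at most 1 Sertoli gene allowed).

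Imprinted genes were low as a group. Of 18 compared, 10 were at least 4-fold lower (55.6%, against 23.9% of all genes compared), 1 higher and 7 between, and the list summed to 464 CPM against 2638 CPM. Dlk1 was at 17.8 CPM against 458 CPM, Mest at 36.5 CPM against 419 CPM, Grb10 at 6.82 CPM against 151 CPM and Plagl1 at 5.25 CPM against 99.2 CPM. Much of the list's level lay in the interstitial group, where it summed to 3642 CPM, against 862 CPM in the Sertoli group. The single higher gene was Phlda2, at 8.39 CPM against 0.361 CPM.

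Sex-linked transcripts also differed. The X chromosome gave 2.23% of germ cell UMIs and 3.27% of those of the other cells, with 2.90% in the Sertoli group and 3.54% in the interstitial group, and the 5th and 95th percentiles over single germ cells were 1.94 and 2.56%. Abundant genes of somatic cells were among the lower ones. Tmsb4x, an actin-binding protein gene, was at 57.8 CPM against 2328 CPM, and of the 522 X-linked genes compared, 159 were at least 4-fold lower (30.5%, against 23.7% of 12999 autosomal genes and up to 31.1% on a single autosome, chromosome 6). At the same time 71 were at least 4-fold higher (13.6%, against 6.29% of autosomal genes). Rhox5 was at 221 CPM, Trap1a at 126 CPM, Map7d2 at 121 CPM and the RNA export gene Nxf2 at 113 CPM, each below 9 CPM in the other cells. On the Y chromosome, Uba1y, a ubiquitin-activating enzyme gene, was at 95.7 CPM against 3.41 CPM, Zfy1 at 7.13 CPM and Usp9y at 6.19 CPM, all at least 4-fold higher, whereas Ddx3y was at 19.99 CPM against 56.3 CPM. Sry, the testis-determining gene, was at 0 UMIs.

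Of the 20 genes lowest in germ cells by ratio, 18 were at a higher level in the Sertoli group than in the interstitial group, and Ren1 and Tagln were not. Ren1, a renin gene of fetal Leydig cells, was at 4.31 CPM against 436 CPM, a ratio of 101. Wnt6, a ligand gene, was at 4.47 CPM against 1008 CPM in the Sertoli group, the prostaglandin D synthase gene Ptgds at 11.1 CPM against 1853 CPM, and Amhr2, the receptor of anti-Müllerian hormone, at 1.65 CPM against 274 CPM. With mitochondrial, ribosomal protein and hemoglobin genes left out, the order of abundance in germ cells began with an elongation factor gene and chaperone genes. Eef1a1 was at 7612 CPM, and Hsp90ab1, Hsp90aa1 and Hspa8 were at 5375, 5302 and 3834 CPM, against 3410, 769 and 1565 CPM in the other cells. Tpt1, at 2773 CPM against 9317 CPM, was among the first 10 of this order yet lower than in the other cells.

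Germ cells also differed among themselves, for one along the cell cycle. To compare cells at 1 depth, 300 germ cells were thinned to 10000 UMIs each, which left out 19 shallower cells. They were then ranked by their UMIs of S phase, G2 and M phase genes and split into quartiles of 75. These UMIs had medians of 24, 31, 40 and 78 in the 4 quartiles and ran from 7 to 151, and the quartiles' median depths before thinning lay between 37382 and 40752 UMIs. The list of male fate was at 399, 380, 384 and 200 CPM from the lowest to the highest quartile. The list of pluripotency and Nodal genes was at 332, 339, 416 and 656 CPM. Much of its rise was Lefty1, at 20 and 143 CPM in the lowest and highest quartile, and Lefty2, at 4 and 62.7 CPM. The 3 lower quartiles of the male-fate list were alike within counting error, and the highest lay below them. The list of germ cell identity had nearly equal levels at the ends (2753 and 2765 CPM in the lowest and highest quartile). The piRNA list was at 6693 and 6628 CPM, but most of this was Hsp90aa1, at 4780 and 5584 CPM, whereas Asz1 was at 184 and 85.3 CPM (ratio 2.16 in favour of the lowest) and Tdrd9 at 26.7 and 9.33 CPM. Leydig markers also differed between the ends, at 571 and 227 CPM, but were at 68.6 and 82.6 CPM in the 277 cells left without the 27 members rich in interstitial genes. Erythroid markers were at 637 and 189 CPM, and of the 206 UMIs of Hbb-y, an embryonic hemoglobin gene, in the lowest quartile, 200 came from a single cell.

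**Figure D4:**
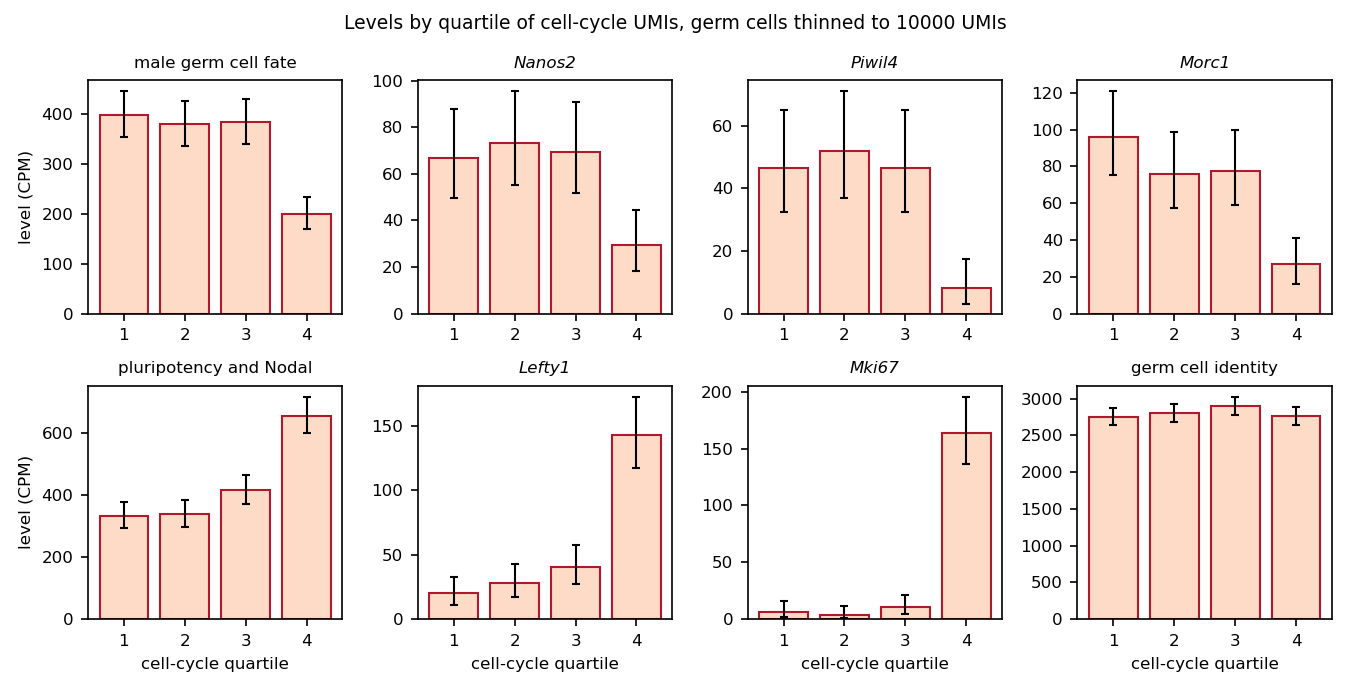
Levels in CPM over quartiles of 75 germ cells ranked by their cell-cycle UMIs after thinning to 10000 UMIs per cell, with exact Poisson 95% intervals as bars. Mki67 is one of the genes that set the ranking. The male-fate list is at 399 CPM in the lowest and 200 CPM in the highest quartile. The list of pluripotency and Nodal genes is at 332 and 656 CPM, much of the rise being Lefty1 and Lefty2.

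Some genes of these lists showed the same contrast and others did not. Nanos2 was at 66.7, 73.3, 69.3 and 29.3 CPM over the quartiles, Piwil4 at 46.7, 52.0, 46.7 and 8.0 CPM, and Dnmt3l at 30.7, 17.3, 28.0 and 0 CPM. For Dnmt3l these were 23 UMIs in the lowest and 0 in the highest quartile, a ratio of 7.67 with the 0 set at a floor of 3 UMIs. Rb1, by contrast, was at 33.3 CPM in the lowest and 40.0 CPM in the highest quartile, Dmrt1 at 32 and 36 CPM and Cdkn1b at 18.7 and 16 CPM, differences within counting error. In the other direction Lefty1 was at 20 CPM in the lowest and 143 CPM in the highest quartile (ratio 7.13, 4.14 to 13.2), Lefty2 had 3 and 47 UMIs (ratio 15.7, 5.04 to 78.7), and Kit had 1 and 19 UMIs (ratio 19, 3.02 to 790). At 5000 UMIs per cell the 3 ratios were 4.27, 7.85 and 8.10. At the deeper thinning of the levels above, Trim71, Sox2 and Nanog of the pluripotency and Nodal list rose less, by differences within counting error. They were at 86.7, 45.3 and 20 CPM in the lowest and 97.3, 61.3 and 30.7 CPM in the highest quartile. For Nanog this depended on the thinning. At 5000 UMIs per cell it had 5 UMIs (12.7 CPM) in the lowest and 18 UMIs (46.2 CPM) in the highest quartile. Trim71 then had 37 and 42 UMIs and Sox2 25 and 24. Meiosis genes did not move together. Smc1b was at 98.7 CPM in the lowest and 259 CPM in the highest quartile, and Sycp3 at 160 and 62.7 CPM. Of 3313 genes with at least 60 UMIs, the ranking genes left out, 187 were at least 2-fold higher in the highest quartile (5.64%) and 127 at least 2-fold lower (3.83%), led on the higher side by the linker histone gene H1f5, L1td1 and the chromatin gene Hmgb2.

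The 2 germ clusters, made from variable genes without those of the rule, gave a second view of the differences. Of the 300 thinned cells, 152 were in cluster A and 146 in cluster B. The highest cell-cycle quartile had 66 cells in A and 9 in B. The genes described here were among those open to the clustering, so their differences are descriptions. Cluster A had the list of pluripotency and Nodal genes at 589 CPM against 280.1 CPM in B. Much of this difference was Lefty1, at 113 CPM in A and 0.685 CPM in B, and Lefty2, at 42.1 and 0 CPM. Cluster B had the male-fate list at 474 CPM against 214 CPM in A. Lefty1 had 172 UMIs in A and 1 in B, Lefty2 64 and 0 (20.5-fold with the 0 set at a floor of 3 UMIs), and Mki67 127 and 10. Dnmt3l, conversely, had 1 UMI in A and 56 in B. The piRNA genes Gtsf1, Tdrd9, Piwil4 and Tdrd1 were at 304, 47.3, 67.8 and 91.8 CPM in B against 32.9, 4.61, 10.5 and 17.1 CPM in A. Dnmt3a was at 95.9 CPM against 19.7 CPM. Markers of other cell types moved with the split. Interstitial markers were at 111 CPM in A and 57.5 CPM in B, Leydig markers at 153 and 81.5 CPM and erythroid markers at 174 and 421 CPM, and their part in it was not tested. Of the 210 Hbb-y UMIs in B, 200 came from a single cell. Nanos2 differed less, at 74.7 CPM in B and 45.4 CPM in A, and the germ cell identity list was at 2866 and 2774 CPM. The clusters had median depths of 41110 UMIs (B) and 36719 UMIs (A) before thinning, and the part of depth in the split was not tested. The embryonic days in the pool were not resolved. Whether a mix of days had a part in the quartile or cluster differences was not tested.

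**Figure D5:**
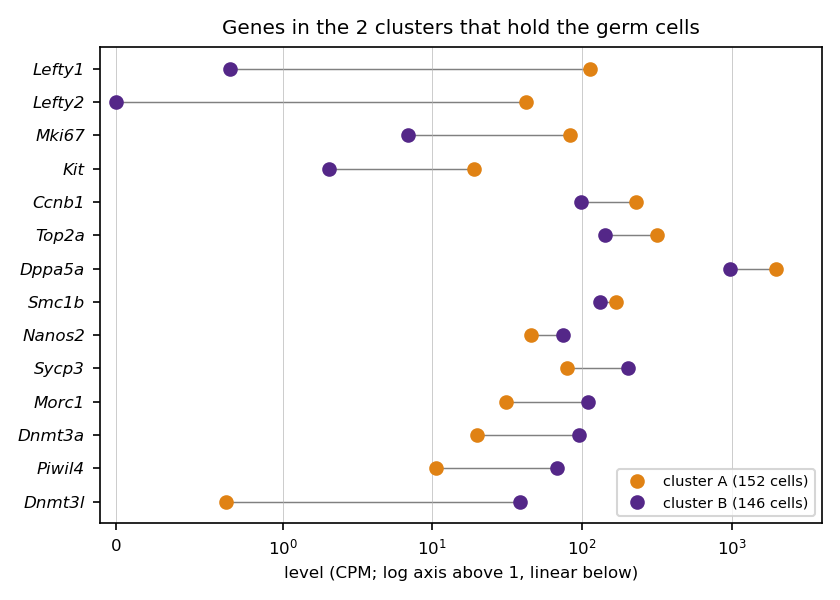
Levels in CPM (log axis above 1 CPM, linear below) of named genes in the 152 cells of germ cluster A (orange) and the 146 cells of germ cluster B (purple), thinned to 10000 UMIs per cell, with a grey line joining the points of a gene. Lefty1 is at 113 CPM in A and 0.685 CPM in B, while Piwil4 is at 10.5 CPM in A and 67.8 CPM in B.

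The variance-to-mean ratio over the thinned cells was led by 3 genes of other cell types. Of 5314 genes, with a median ratio of 1.07, the highest were Hbb-y (179), Cyp11a1 (99.5) and Cyp17a1 (82.3), an embryonic hemoglobin and steroid enzymes. Among the highest 20 were also 8 mitochondrial genes, led by mt-Co3 (20.8). Before thinning, 1037 of the 1176 Hbb-y UMIs and 1333 of the 1610 Cyp17a1 UMIs came from 1 cell each. Without the 27 members rich in interstitial genes, 14 of the top 20 stayed, and Dppa5a (4.88), the cell-cycle gene Ube2c (4.86), Ptma, Npm1, Hbb-bt and Rps20 entered. The male-fate ratio of the lowest over the highest cell-cycle quartile was 1.99 in all cells and 2.07 without these 27. For the list of pluripotency and Nodal genes the ratio of the highest over the lowest was 1.98 and 2.13. In all cells much of this rise was Lefty1 and Lefty2.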

How the data were processed

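Reads had been mapped by the authors to mm10 with an added YFP sequence, using Cell Ranger, and raw UMI counts of genes by barcodes were deposited. The matrix header names software version 3.1.0, and the submitters' processing notes name Cell Ranger 3.0.2 and 3.1.0, whereas the study's methods name a later version. The matrix held 5421 barcodes, 22631 features and 72595083 UMIs. Barcodes with fewer than 1000 genes were left out. Levels are summed UMIs per 1000000 with exact Poisson 95% intervals, and shares have Clopper-Pearson intervals. Both cover counting error only. Genes with at least 50 UMIs in the compared cells were called at a 4-fold difference. With 1 library, no test was made. The members and the gene lists were chosen with earlier results of these data known. Named genes were all list genes, the 20 largest ratios each way at 50 CPM or more (without rule, mitochondrial, ribosomal protein and hemoglobin genes), the 10 most abundant and the 20 with the highest variance-to-mean ratio. Positions came from GENCODE M21, promoters from RefSeq. Clustering used 2000 variable genes, 30 components, 20 neighbours and the Leiden method. Python 3.11.15, numpy 2.4.6, scipy 1.17.1, scikit-learn 1.9.0 and python-igraph 0.11.9 were used. The fold calls and the thinning were tested on simulated data, and the other steps were not. Thinning, rule limits, gene filters, totals and doublet removal were varied. Gcna, Iho1, H19, Meg3, Rian and Kcnq1ot1 were not used here.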

Additional observations from a re-analysis of the deposited data

Results flagged for a closer look

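UMIs assigned to YFP, a reporter sequence joined to the genome, were found in these cells, although by the study's description the control gonads of this experiment carried neither Cre nor the reporter transgene. No comparison above used them. There were 14 UMIs of YFP in 14 of the 319 germ cells (4.39%, 2.42 to 7.25%), or 1.10 CPM (0.600 to 1.84). The other cells held 143 UMIs, or 2.58 CPM (2.17 to 3.04), and the Sertoli group 3.09 CPM (2.27 to 4.11). The YFP level was thus not higher in germ cells than in the rest of the library, and the source of these UMIs was not tested.

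The 29 cells with at least 5 germ genes and at least 5 Sertoli genes were not germ cells by the rule and were counted among the other cells. They held 1125840 UMIs, with a median of 43999 per cell, had germ genes of the rule at 4306 CPM and the 7 Sertoli markers outside the rule at 2303 CPM, and 15 of them were among the barcodes marked by the artificial-doublet score. Whether they are 2 cells under 1 barcode was not tested.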

How the results depend on the processing

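No paired analysis was possible because there was 1 library and the results come from no test. The share of germ cells was 5.49% (236 cells) with at most 1 Sertoli gene allowed, and between 6.83 and 7.66% under the other rules tried. Genes at least 4-fold higher numbered 1604 with no filter beyond 1 UMI and 747 to 973 under the other settings. The level of Nanos2 was 105 CPM with mitochondrial, ribosomal protein and hemoglobin genes left out of the total, and 62.3 to 66.3 CPM otherwise. Its share of cells with a UMI was 16.8% after thinning to 3000 UMIs in place of 5000. Genes with a variance-to-mean ratio of at least 2 numbered 121, and 80 without the 27 members rich in interstitial genes, an alternative chosen after seeing the data. No other main value moved beyond its limit, the lower genes at 2164 to 3428 and the male-fate ratio at 1.71 to 2.35 among them. Of 362 named genes under 8 settings, 16 crossed the 4-fold limit in at least 1 setting and none changed direction. The 16 included Cenpf, Cdkn1a, Rb1, Pdk1, Apaf1, Ifitm3, Tet1, Pld6, Tek and Gpm6a. Tek, called lower in germ cells, fell short of 4-fold without the marked doublets and as a mean over single cells (log2 ratios -1.79 and -1.90). Gpm6a, also called lower, had a log2 ratio of -1.10 as a mean over single cells. Genes with fewer than 50 UMIs in the compared cells, Gfra1 and Tdgf1 among them, could not be compared at this depth.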

Other observations

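The shallow barcodes left out by the limit of 1000 genes held few germ cells. Among these 1120 barcodes, with a median of 1878 UMIs, 3 held at least 5 germ genes of the rule, and the 8 germ genes summed to 35.2 CPM, against 6565 CPM in the germ cells.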
